A study of Mus musculus with 36 samples.

Results

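The Hox genes of the mouse were described by where tagged histone H4 was found in their 4 clusters in embryonic stem cells. The 38 genes named in the list were located by their RefSeq coordinates on mm10, among 21887 protein-coding genes on the named chromosomes. The list holds 10 genes of HoxA, 10 of HoxB, 9 of HoxC and 9 of HoxD. It names genes by family, without a cutoff on a measured value, but was drawn up with earlier results of these data known. The series mapped HA-tagged H4 by ChIP-seq, in which DNA bound by a tagged protein is pulled down with an antibody to the tag and sequenced. Its 36 samples are 18 pulldowns and 18 inputs from stem cells, neural derivatives and knockout stem cells. The peak lists of 4 stem cell pulldowns, 1 library for each group, are used below, and the remaining 32 samples were not analysed here.

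The groups were H4K91R, H4K91Q, H4WT and EV. H4K91R cells stably expressed H4 with arginine in place of lysine 91, and H4K91Q cells H4 with glutamine there. H4WT cells expressed unchanged H4, and EV cells carried the empty vector. The transgenes were delivered with PiggyBac, a transposon that inserts at many places of a genome, and the 3 H4 proteins carried 3 HA copies. All 4 lines came from parental stem cells with no named gene ablated, and no change to their own H4 genes is named. Neither the promoter of the transgene nor whether a line was a clone or a pool is stated in the labels. The lists hold peaks and no expression values, so the stem cell label could not be set against marker genes.

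The H4K91R list held 49155 peaks, the H4K91Q list 14314, the H4WT list 69158 and the EV list 3007. Tagged peaks that overlapped an EV peak by at least 1 bp were left out, which kept 47898 regions of H4K91R, 14206 of H4K91Q and 67078 of H4WT. No read numbers come with the lists, so the depth behind a region, or behind its absence, is unknown. With 1 library for each group, differences have no replicate check and no p-value is printed. Exact 95% intervals below are Clopper-Pearson intervals and cover counting error only. Neighbouring Hox genes share regions, so the counts of genes are not independent draws.

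Histone H4 is a core protein of the nucleosome, the spool on which DNA is wound, and lysine 91 lies in its globular part, at the contact with the H2A-H2B dimer. Hox genes encode homeodomain transcription factors that give cells their place along the body axis. Each mammalian cluster holds its genes in the order in which they act, from anterior to posterior, and genes at the same place in different clusters are paralogs with related sequences and partly shared roles. In embryonic stem cells the clusters are mostly silent, rich in CpG dinucleotides and known as large domains of Polycomb repression.

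RefSeq promoter sequences (build GRCm38.p6, which is mm10) were at hand for 22 of the 38 genes, as 24 entries. Each entry runs from 250 bases before to 50 bases after a start. The following 4 stand for 4 of the 5 patterns found: an entry overlapped by all 3 tagged lists, one overlapped by H4K91R and H4WT, one overlapped by H4K91R alone and one overlapped by none. The other pattern, H4WT alone, is that of Hoxc4. Capitals mark CpG dinucleotides, and each sequence is given 5′ to 3′ on the strand of its gene. The second Hoxd11 entry lies at chr2:74682073-74682372 on the plus strand. The Hoxa13 entry lies at chr6:52260831-52261130, the Hoxa5 entry at chr6:52204538-52204837 and the Hoxa9 entry at chr6:52227321-52227620, all on the minus strand.
Hoxd11, second entry: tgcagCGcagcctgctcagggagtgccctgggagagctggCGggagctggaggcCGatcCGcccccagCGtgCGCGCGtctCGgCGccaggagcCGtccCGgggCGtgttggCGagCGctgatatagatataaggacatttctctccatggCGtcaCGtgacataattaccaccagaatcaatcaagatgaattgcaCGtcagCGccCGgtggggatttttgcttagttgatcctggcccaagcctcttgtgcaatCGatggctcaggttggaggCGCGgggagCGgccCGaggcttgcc
Hoxa13: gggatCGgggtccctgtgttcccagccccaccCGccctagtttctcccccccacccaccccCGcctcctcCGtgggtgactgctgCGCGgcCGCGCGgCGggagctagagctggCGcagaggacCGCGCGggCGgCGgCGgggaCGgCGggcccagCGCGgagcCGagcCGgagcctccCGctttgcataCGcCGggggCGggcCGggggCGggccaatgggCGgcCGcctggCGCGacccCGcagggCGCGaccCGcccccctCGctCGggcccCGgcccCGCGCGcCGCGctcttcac
Hoxa5: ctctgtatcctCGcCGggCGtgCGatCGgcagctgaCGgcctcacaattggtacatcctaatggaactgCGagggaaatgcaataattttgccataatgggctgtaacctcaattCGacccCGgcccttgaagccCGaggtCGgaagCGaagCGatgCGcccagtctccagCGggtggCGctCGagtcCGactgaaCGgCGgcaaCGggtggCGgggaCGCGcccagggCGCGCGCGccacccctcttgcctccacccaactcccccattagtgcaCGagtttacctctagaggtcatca
Hoxa9: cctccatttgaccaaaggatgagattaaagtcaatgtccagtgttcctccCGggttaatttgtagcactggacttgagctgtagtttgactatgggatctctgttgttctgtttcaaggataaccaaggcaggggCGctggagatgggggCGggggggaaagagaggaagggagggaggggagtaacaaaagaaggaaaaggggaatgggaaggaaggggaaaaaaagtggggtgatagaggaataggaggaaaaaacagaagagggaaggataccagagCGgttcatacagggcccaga

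The Hoxa13 promoter held 45 CpG dinucleotides, the highest count of the 24 entries, against 4, the lowest count, in the entries of Hoxa9 and Hoxd4 and the first entry of Hoxd11. Most of the 24 entries belong to HoxA and HoxD, with Hoxa10 and Hoxd11 entered more than once. HoxB is present only by Hoxb1, Hoxb4 and Hoxb8, and HoxC only by Hoxc4. H4K91R regions overlapped 15 of the 24 Hox promoters (62.5%), against 16.9% of 21263 promoters of all protein-coding genes. Among the HoxB and HoxC entries, H4K91R overlapped that of Hoxb1 alone, so these shares describe mainly HoxA and HoxD. H4WT regions overlapped 14 of the 24 (58.3%), against 40.2% of all promoters, and H4K91Q regions overlapped 1 (4.17%), against 0.353%. The 13 Hox promoters with both H4K91R and H4WT held a median of 21 CpG dinucleotides, between 6 in Hoxd8 and 45 in Hoxa13. The 8 with no tagged region held a median of 10.5, between 4 and 14. In all promoters the corresponding medians were 25 with both histones and 5 with none. CpG content and tagged regions therefore moved together in the Hox promoters and in promoters at large, and their part in each other was not tested. Hoxa5 (29 CpG dinucleotides) and Hoxa7 (9) had an H4K91R region in the window and no H4WT region there, and Hoxc4 (9) had the reverse.

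Hox genes carried H4K91R at 33 of 38 (86.8%, exact 95% interval 71.9% to 95.6%), where a gene counts as marked if a region overlaps the 1 kb on either side of its first or last base. Of all protein-coding genes, 37.9% were marked by H4K91R under the same rule. H4K91Q marked none of the 38 genes (interval 0% to 9.25%), and its share of all genes, 1.26%, lies inside that interval. H4WT marked 37 of 38 (97.4%, 86.2% to 99.9%), against 58.4% of all genes. EV marked 1 gene, Hoxb13, against 1.67% of all genes. Each of the 33 Hox genes marked by H4K91R was also marked by H4WT. Of the 8286 protein-coding genes marked by H4K91R, 7828 also had H4WT and 458 did not. Among the 37 H4WT-marked Hox genes, 33 also had H4K91R (89.2%, 74.6% to 97.0%), against 7828 of 12775 H4WT-marked genes at large (61.3%, 60.4% to 62.1%).

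The start of a Hox gene was more often occupied than its other end. With strand taken from the promoter table or from the other genes of the cluster, H4K91R overlapped the start window of 27 Hox genes, against 32.1% of the 17492 protein-coding genes with a known strand, and the other end of 14, against 10.7%. H4K91Q overlapped no start and no other end, against 0.629% and 0.835% of those genes. H4WT overlapped the start window of 35, against 53.8%, and the other end of 24, against 17.3%. EV overlapped 1 start, against 0.692%, and no other end, against 1.04%. Both ends of the same gene were occupied at 8 Hox genes for H4K91R, against 5.41% of the genes with a known strand, and at 22 for H4WT, against 13.4%. In a short gene 1 region can count for both ends, as the H4WT region of 1405 bp did at Hoxa13, a gene of 2028 bp. The genes compared were not matched for length. No Hox gene had both ends occupied by H4K91Q or EV, against 0.149% and 0.08%. Windows on the whole gene and 1 kb beside it held H4K91R at 36 of 38 Hox genes, against 52.8% of all genes, H4K91Q at 1, against 7.26%, H4WT at 38, against 68.2%, and EV at 1, against 7.58%. Several annotated spans are long and enclose a neighbour: Hoxa3 runs over Hoxa4, Hoxa5 and Hoxa6, Hoxb3 over Hoxb4, and Hoxd3 over Hoxd4. For Hoxb8, Hoxc4 and Hoxd10 the promoter table places the start further inside the gene than the gene table does.

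Marked Hox genes also held more regions than marked genes in general. A marked Hox gene had a median of 2 regions at its ends in the H4K91R list and 2 in the H4WT list, against 1 in both lists for all marked genes. H4K91R had 2 or more regions at 17 of its 33 Hox genes, against 30.9% of all marked genes, with up to 4 at Hoxa6, Hoxb9, Hoxc9 and Hoxd9. H4WT had 2 or more at 28 of its 37, against 42.9%, with up to 5 at Hoxa3 and Hoxc6. In all, 58 H4K91R regions and 88 H4WT regions lay at Hox gene ends, of which 3 and 5 touched 2 genes each.

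The authors' fold enrichment of a peak is its pileup over the local background, and it is used here only within a list. For the highest region at each marked Hox gene the median fold was 6.55 in the H4K91R list (range 4.51 to 9.79), against 5.59 for all H4K91R-marked genes. In the H4WT list it was 9.33 (range 4.93 to 14.5), against 7.39 for all H4WT-marked genes. By cluster the H4K91R medians were 6.98 in HoxA, 5.81 in HoxB, 6.09 in HoxC and 7.69 in HoxD, each above that of all marked genes. The H4WT medians were 11.4 in HoxA, 8.37 in HoxB, 9.33 in HoxC and 7.05 in HoxD, and that of HoxD was below the 7.39 of all marked genes.

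**Figure D1:**
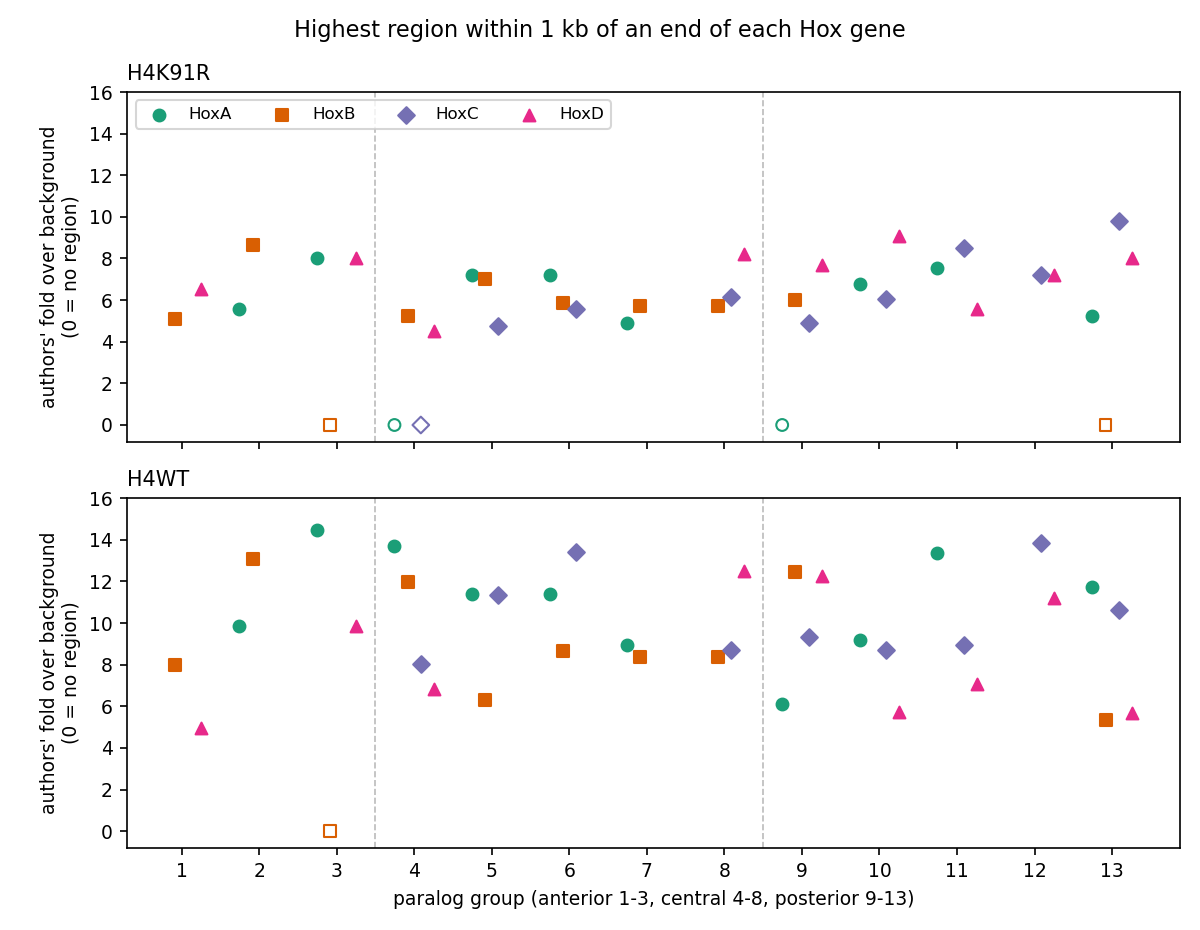
Authors' fold of the highest region within 1 kb of an end of each Hox gene (vertical axis) by paralog group (horizontal axis), for H4K91R above and H4WT below. Each point is 1 gene in 1 library, coloured by cluster, and open points at 0 had no region: 5 genes for H4K91R and 1, Hoxb3, for H4WT. Folds of the 2 panels come from separate lists and are not compared.

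In the HoxA cluster H4K91R marked 8 of 10 genes, H4K91Q none, H4WT all 10 and EV none. Hoxa3, needed for the thymus and parathyroid, had the highest fold of the cluster at gene ends in both lists. Its H4K91R region, at the gene's start, had a fold of 8.03, a −log10 q of 12.0 and a width of 389 bp, at percentile 92.7 of H4K91R-marked genes. Its H4WT region, inside the gene near the other end, had a fold of 14.5, a −log10 q of 32.6 and a width of 1030 bp, at percentile 99.5 of H4WT-marked genes. Hoxa2, which patterns the hindbrain and the second pharyngeal arch, had a fold of 5.59 for H4K91R and 9.85 for H4WT.

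Hoxa4 and Hoxa9 were the HoxA genes with H4WT and no H4K91R region. At Hoxa4 the H4WT list held 3 regions, the highest at the start with a fold of 13.7 and a −log10 q of 26.1, at percentile 98.9 of H4WT-marked genes. The nearest H4K91R regions lay 12021 bp from the Hoxa4 start and 13783 bp from its other end. They bordered the longest stretch of the cluster without H4K91R, 27.8 kb at chr6:52175899-52203724, whereas the longest without H4WT was 8.53 kb. Hoxa9, a regulator of blood progenitors, had an H4WT fold of 6.10, at percentile 28.7, and its nearest H4K91R region was 1204 bp from its start, just outside the window. The absence at Hoxa9 therefore turns on the window, and the absence at Hoxa4 does not.

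Hoxa5, which acts in the lung and the neck, and its neighbour Hoxa6 shared their highest region in each list, with a fold of 7.20 for H4K91R and 11.4 for H4WT. Hoxa7 had 4.91 for H4K91R and 8.96 for H4WT. Hoxa10, which acts in the uterus, had no H4K91R region at its annotated start and 1 at its other end, with a fold of 6.76. The widest H4K91R region of all 4 clusters, 1143 bp with a fold of 6.83, lay inside Hoxa10 at its second promoter entry, under an H4WT region of 1807 bp. Hoxa11, needed for the forearm and the kidney, had a fold of 7.54 for H4K91R and 13.4 for H4WT. At Hoxa13, which patterns the digits and the genital tract, the 3 H4K91R regions reached a fold of 5.22, and 1 H4WT region of 1405 bp with a fold of 11.7 spanned the start.

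In the HoxB cluster H4K91R marked 8 of 10 genes, H4K91Q none, H4WT 9 and EV 1. Hoxb2, a hindbrain gene, was the highest at gene ends in both lists, with a fold of 8.63 for H4K91R and 13.1 for H4WT. Hoxb1, which specifies a hindbrain segment and its facial motor neurons, had 5.08 for H4K91R and 7.99 for H4WT. Hoxb9 had 4 regions in each list, with a highest fold of 6.02 for H4K91R and 12.5 for H4WT. Hoxb5 stood at percentile 83.6 of the H4K91R-marked genes (fold 7.02) and percentile 31.4 of the H4WT-marked genes (fold 6.31). Hoxb4, known for expanding blood stem cells, stood at percentiles 39.3 and 95.7, with folds of 5.26 for H4K91R and 11.9 for H4WT.

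Hoxb7 and Hoxb8 shared 1 H4K91R region, with a fold of 5.73, and 3 H4WT regions, the highest with a fold of 8.37. Hoxb6 had an H4K91R region at its other end alone, with a fold of 5.88. Hoxb3 had no region at its ends in any tagged list, with the nearest H4K91R region 1296 bp and the nearest H4WT region 1371 bp from its other end. Its annotated span of 40830 bp, with 1 kb on each side, nevertheless held 9 H4K91R and 12 H4WT regions.

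Hoxb13, a posterior gene of the prostate and the tail bud that lies apart from the rest of its cluster, was the only Hox gene with an EV region, at chr11:96194763-96194925 with a fold of 4.74. An H4K91R peak there, with a fold of 7.30 and a −log10 q of 10.5, and an H4WT peak, with a fold of 9.61 and a −log10 q of 16.4, overlapped the EV region and were left out. With such overlaps kept, H4K91R marked 34 Hox genes, H4WT still 37, and the HoxB cluster held 28 H4K91R and 49 H4WT regions. The next H4K91R region was 20873 bp from the Hoxb13 start. H4WT had 1 region at the other end of the gene, with a fold of 5.36 and at percentile 16.2. Both the EV region and the H4WT region were below the median fold of their list, 5.48 for EV and 5.68 for H4WT.

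In the HoxC cluster H4K91R marked 8 of 9 genes, H4K91Q none, H4WT all 9 and EV none. Hoxc13, needed for hair and nails, had the highest H4K91R fold at the ends of the 38 genes, 9.79 with a −log10 q of 15.3 over 890 bp at its start, and an H4WT fold of 10.6 at the same place. Hoxc12 had 7.20 for H4K91R and 13.8 for H4WT, the highest H4WT fold of the cluster at gene ends. Hoxc11 had 8.5 for H4K91R and 8.97 for H4WT, and Hoxc10 had 6.04 for H4K91R and 8.69 for H4WT. From Hoxc5 to Hoxc9 the H4K91R folds were 4.74 at Hoxc5, 5.58 at Hoxc6, a gene of limb-level motor neurons, 6.14 at Hoxc8 and 4.89 at Hoxc9, a gene of thoracic motor neurons. The same 4 genes had H4WT folds of 11.3, 13.4, 8.69 and 9.33. At its ends Hoxc4 had H4WT alone, with a fold of 8.02 at its other end, and the H4K91R region nearest to its annotated start lay 2579 bp away. Its annotated span, with 1 kb on each side, nevertheless held 2 H4K91R and 4 H4WT regions.

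In the HoxD cluster H4K91R marked all 9 genes, H4K91Q none, H4WT all 9 and EV none. Hoxd10, a gene of lumbar motor neurons and the limb, had the highest H4K91R fold of the cluster at gene ends, 9.09 at percentile 96.3, in a region inside Hoxd11 that reached the window around its annotated start. Its H4WT fold was 5.71, at percentile 21.6. The H4WT region inside Hoxd11, of 1797 bp and a fold of 11.4, overlapped that H4K91R region and ended just short of the window, so the contrast at Hoxd10 turns on the window. It also turns on the annotated start. At the Hoxd10 promoter entry, further inside the gene, the H4K91R region had a fold of 8.19 and the H4WT region 11.5. Hoxd13, the digit gene at the posterior end, stood at percentile 92.7 for H4K91R with a fold of 8.03 over 1058 bp, and at percentile 20.2 for H4WT with a fold of 5.66 over 1232 bp. Hoxd1 stood at percentile 75.1 for H4K91R (fold 6.55) and percentile 9.96 for H4WT (fold 4.93). The H4WT regions at Hoxd1 and Hoxd13 were broad and low in their list. Hoxd8 and Hoxd9 were high in both lists, with folds of 8.21 and 7.69 for H4K91R and 12.5 and 12.3 for H4WT. Hoxd12 had 7.23 for H4K91R and 11.2 for H4WT, and Hoxd3 had 8.03 for H4K91R and 9.85 for H4WT. Hoxd11, needed with Hoxa11 for the forearm, had 5.57 for H4K91R at its other end and 7.05 for H4WT at its start. Hoxd4 had the lowest H4K91R fold of all marked Hox genes, 4.51, at its other end, and an H4WT fold of 6.85.

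H4K91Q had 1 region in the 4 clusters, inside Hoxd11 at chr2:74682242-74682511. It was 270 bp long, with a fold of 4.98 and a −log10 q of 5.86, and overlapped regions of H4K91R and of H4WT as well as the second Hoxd11 promoter printed above. At the average density of its list over the genome, 2.57 H4K91Q regions would lie in a span as long as the clusters. The count of 1 could not be told from that average at this list length.

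By paralog group, every gene of groups 1, 2, 5, 6, 7, 8, 10, 11 and 12 was marked by both H4K91R and H4WT. The exceptions fell in group 3 (Hoxb3), group 4 (Hoxa4 and Hoxc4), group 9 (Hoxa9) and group 13 (Hoxb13). Group 4 had the fewest genes with H4K91R, 2 of 4, with folds of 5.26 at Hoxb4 and 4.51 at Hoxd4, whereas H4WT marked all 4 with folds between 6.85 and 13.7. Anterior genes (groups 1 to 3) were marked by H4K91R at 6 of 7 and by H4WT at 6. Central genes (groups 4 to 8) were marked at 13 of 15 by H4K91R and at 15 by H4WT, and posterior genes (groups 9 to 13) at 14 of 16 by H4K91R and at 16 by H4WT. The H4K91R folds had medians of 7.29, 5.73 and 7.21 at anterior, central and posterior genes, and the H4WT folds 9.85, 8.96 and 9.26. Start windows with H4K91R numbered 6 of 7, 9 of 15 and 12 of 16 in that order, and those with H4WT 6, 14 and 15. The exact intervals of the H4K91R shares at either end overlap, at 42.1% to 99.6%, 59.5% to 98.3% and 61.6% to 98.4%, and the groups are too small to be separated.

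**Figure D2:**
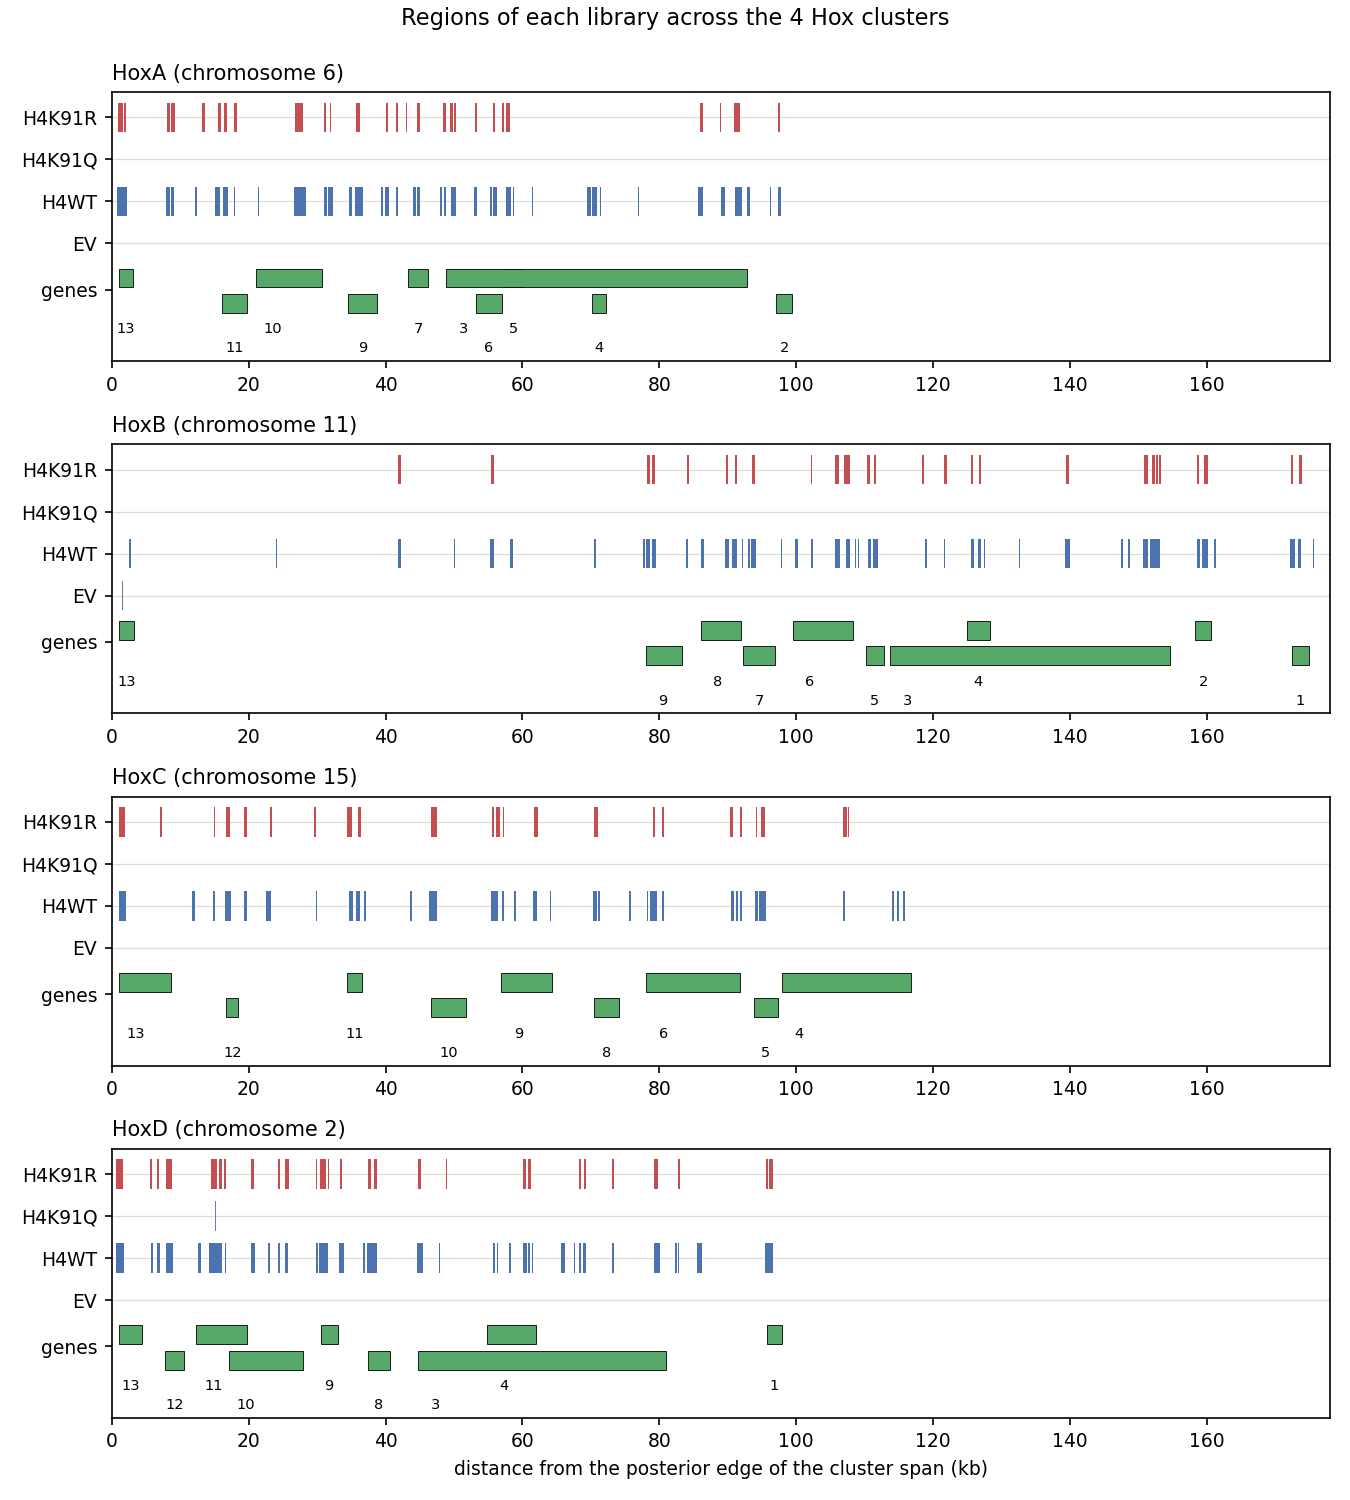
Regions of each library along the 4 Hox clusters, with distance in kb from the posterior edge of the cluster on the horizontal axis. Each coloured bar is 1 region drawn to scale, green boxes are genes with their paralog number, and rows run from H4K91R to EV. H4K91R bars mostly lie over H4WT bars, H4K91Q has 1 bar, in HoxD, and EV has 1, at Hoxb13.

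Across the whole clusters, from 1 kb outside the first to 1 kb outside the last listed gene, H4K91R had 111 regions in 493 kb, or 2.25 per 10 kb, and covered 8.88% of the bases. H4WT had 160 regions, or 3.25 per 10 kb, and covered 14.8%. In the 100 kb on each side, H4K91R had 24 regions, or 0.30 per 10 kb, and H4WT 43, or 0.54. Over the genome the H4K91R list averaged 0.176 per 10 kb and the H4WT list 0.246. The clusters were thus 12.8 times the genome average for H4K91R and 13.2 times for H4WT.

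**Figure D3:**
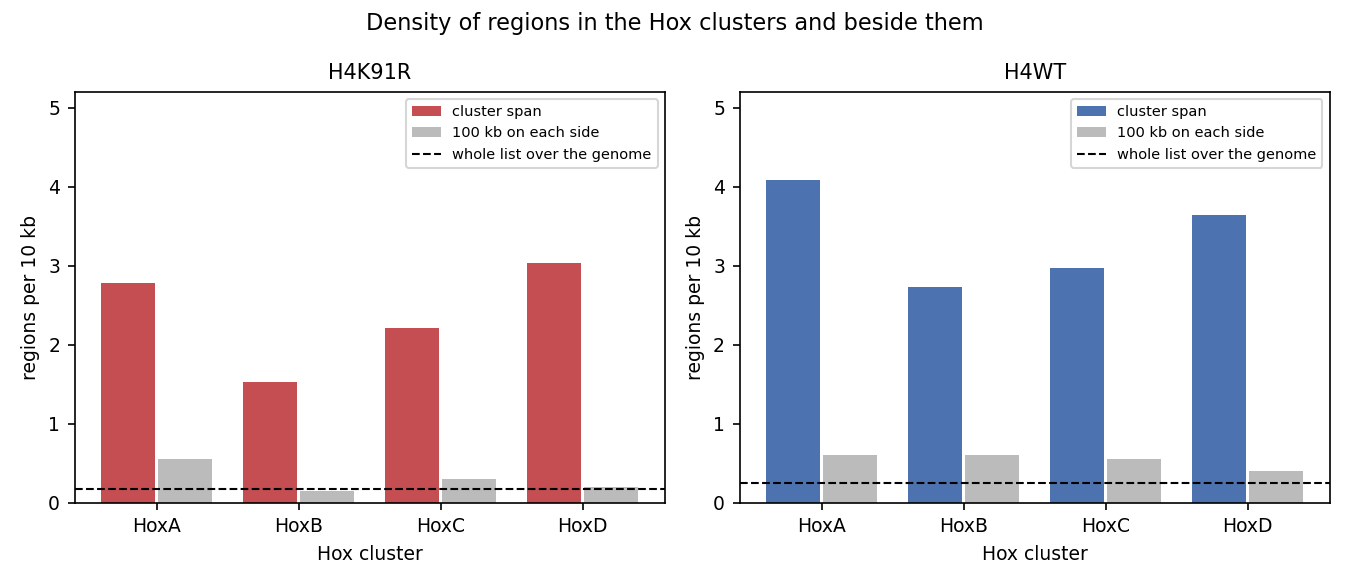
Regions per 10 kb (vertical axis) inside each Hox cluster (coloured bars) and in the 100 kb on each side of it (grey bars), for H4K91R on the left and H4WT on the right. The dashed line is the average of the whole list over the genome, 0.176 for H4K91R and 0.246 for H4WT. Each bar is 1 library without replicates, and in every cluster the coloured bar stands above the grey one.

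H4K91R was densest in HoxD and sparsest in HoxB. It had 28 regions in HoxA (chr6:52161417-52261880), 27 in HoxB (chr11:96193316-96369254), 26 in HoxC (chr15:102920131-103037856) and 30 in HoxD (chr2:74667225-74766142). Per 10 kb that was 2.79 in HoxA, 1.54 in HoxB, 2.21 in HoxC and 3.03 in HoxD. H4WT had 41 regions in HoxA, 48 in HoxB, 35 in HoxC and 36 in HoxD, or 4.08, 2.73, 2.97 and 3.64 per 10 kb in the same order, and was densest in HoxA. The genome was also divided into 27236 tiles of 100 kb, with a median of 1 region in each list. As many H4K91R regions as the density of HoxD stood in 0.0771% of the tiles, of HoxA in 0.147%, of HoxC in 0.305% and of HoxB in 1.09%. For H4WT the corresponding shares were 0.452% for HoxD, 0.308% for HoxA, 0.914% for HoxC and 1.10% for HoxB.

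The low density of HoxB came with the long interval between Hoxb13 and Hoxb9. That interval of 74.7 kb held 2 H4K91R regions, or 0.268 per 10 kb, and 8 H4WT regions, or 1.07 per 10 kb. From Hoxb9 to Hoxb1 (98.9 kb) there were 25 H4K91R regions, or 2.53 per 10 kb, and 40 H4WT regions, or 4.04. Without Hoxb13 and the interval, HoxB was therefore denser than HoxC for H4K91R, and denser than HoxC and HoxD for H4WT. The longest stretch without H4K91R measured 41.9 kb in HoxB, next to Hoxb13 and with the left-out peak there not counted, 27.8 kb in HoxA, 12.6 kb in HoxD and 11.5 kb in HoxC. For H4WT the longest were 21.2 kb in HoxB, 8.53 kb in HoxA, 9.21 kb in HoxD and 11.2 kb in HoxC.

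The number of H4K91R regions per H4WT region was 0.683 in HoxA, 0.563 in HoxB, 0.743 in HoxC and 0.833 in HoxD. It was 0.694 over the 4 clusters and 0.714 over the whole lists, so the clusters as a whole lay near the ratio that the lengths of the lists give. The order of the clusters depended on the threshold. When each tagged list was shortened to the 14314 peaks of highest −log10 q, the length of the H4K91Q list, HoxA had 15 H4K91R and 21 H4WT regions, HoxB 12 and 14, HoxC 7 and 18, and HoxD 16 and 11. The ratio was then 0.389 in HoxC and 1.45 in HoxD, against 1.02 for the whole shortened lists, and HoxD was the only cluster with more H4K91R than H4WT regions. The shortened lists kept −log10 q values down to 6.57 for H4K91R and 10.8 for H4WT, so equal length is not equal strength.

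**Figure D4:**
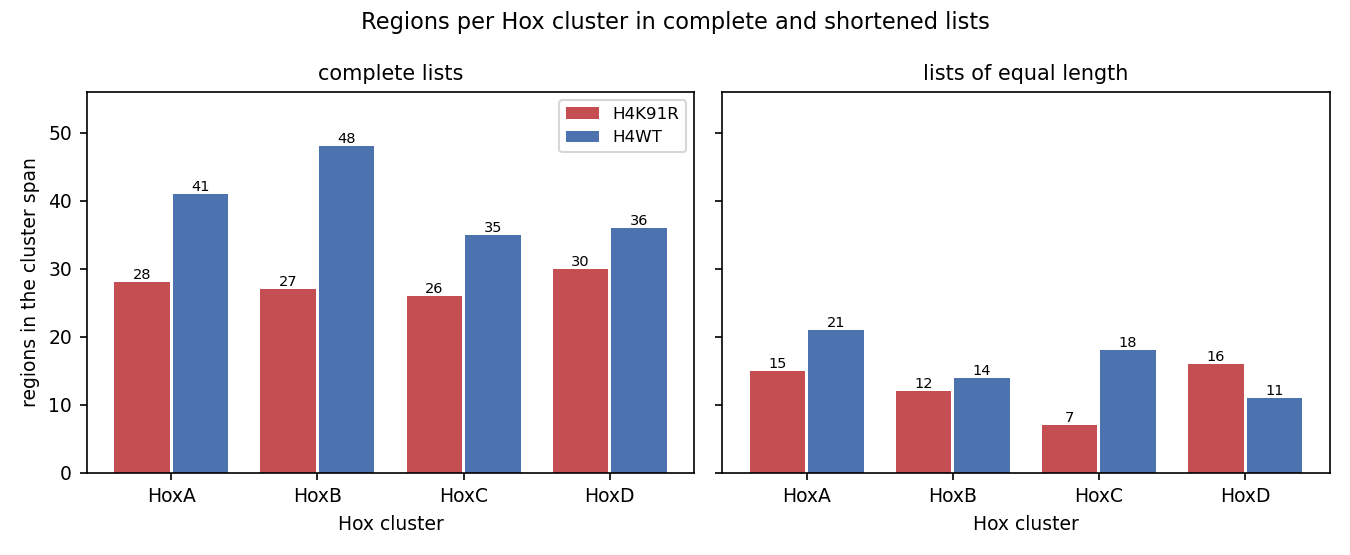
Number of regions in each Hox cluster for H4K91R (red) and H4WT (blue), with the complete lists on the left and lists shortened to equal length by −log10 q on the right. Each bar is a count from 1 library, printed above it. In the shortened lists H4K91R exceeds H4WT in HoxD alone, and is lowest in HoxC.

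The genes followed the same division. In the shortened lists H4K91R marked 20 Hox genes, 6 in HoxA, 3 in HoxB, 4 in HoxC and 7 in HoxD, against 13.9% of all genes. H4WT marked 29, of which 9 lay in HoxA, 7 in HoxB, 9 in HoxC and 4 in HoxD, against 29.2% of all genes. In HoxC the H4K91R genes left were the posterior Hoxc10, Hoxc11, Hoxc12 and Hoxc13. In HoxD they were Hoxd1, Hoxd3, Hoxd8, Hoxd9, Hoxd10, Hoxd12 and Hoxd13, and the H4WT genes were Hoxd3, Hoxd8, Hoxd9 and Hoxd12. The exact intervals of such counts are wide and there is 1 library per group, so a difference between clusters is not shown to exceed the spread between replicates.

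Taken over the 4 clusters, regions had a larger median width and fold than their whole lists. The median fold was 5.66 for H4K91R, against 5.28 in its list, and 6.61 for H4WT, against 5.68. HoxC went the other way for H4K91R, with a median fold of 5.04. H4K91R regions in the clusters had a median width of 348 bp, against 270 bp in the list, and H4WT regions 357.5 bp, against 265 bp. Regions of at least 1 kb numbered 2 for H4K91R, in Hoxa10 and Hoxd13, and 11 for H4WT, and their share of the whole lists was not counted. Of the 111 H4K91R regions, 63 (56.8%) exceeded the median fold of their list, 5.28, and of the 160 H4WT regions 112 (70.0%) exceeded theirs, 5.68. By the midpoint of each region, 39 H4K91R regions (35.1%) lay at a Hox gene start, 10 (9.01%) at the other end, 46 (41.4%) elsewhere inside a gene and 16 (14.4%) between genes. For H4WT these were 48 (30.0%), 25 (15.6%), 58 (36.3%) and 29 (18.1%). The places were not counted for the whole lists, so these shares are not shown to be particular to the clusters.

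The highest cluster region of H4K91R away from Hox gene ends lay between Hoxa11 and Hoxa13 at chr6:52253438-52253800, with a fold of 8.76. A further one stood inside Hoxc9 at chr15:102981782-102982413, with 8.53. For H4WT the highest such region was inside Hoxb6 at chr11:96299037-96299696, with a fold of 14.3. Each of the 3 was overlapped by the other histone.

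H4K91R regions of the clusters nearly all lay on H4WT regions. Of the 111, 102 overlapped an H4WT region by at least 1 bp (91.9%, 85.2% to 96.2%), against 54.0% of the whole H4K91R list. By cluster these were 25 of 28 in HoxA, 26 of 27 in HoxB, 22 of 26 in HoxC and 29 of 30 in HoxD. The 9 without H4WT had folds between 4.42 and 5.66, and 8 of them were below the median of the H4K91R list. They included the lower of the 2 H4K91R regions at the start of Hoxa5, with a fold of 5.16, and the region at the start of Hoxa7. H4WT covered 14.8% of the cluster bases, against 0.847% of the genome, and how much of the overlap goes with this coverage was not tested.

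In the other direction 94 of 160 H4WT regions overlapped H4K91R (58.8%, 50.7% to 66.5%), against 37.7% of the whole H4WT list. The share was 56.1% in HoxA, 52.1% in HoxB, 62.9% in HoxC and 66.7% in HoxD. At Hox gene starts 32 of 48 H4WT regions had H4K91R, at other ends 10 of 25, inside genes 37 of 58 and between genes 15 of 29. The summits of overlapping regions lay a median of 127.5 bp apart in the clusters (94 pairs), against 85 bp in the whole lists (25309 pairs). H4K91Q overlapped 2 of the 111 H4K91R regions and 1 of the 160 H4WT regions, all at its Hoxd11 region. For H4K91R that was 1.80% (0.219% to 6.36%), against 16.04% of the whole list. For H4WT it was 0.625% (0.0158% to 3.43%), against 4.09% of the whole list. Each list value lay above the interval of the clusters, and the cluster shares rest on 1 H4K91Q region.

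The share of H4WT regions with H4K91R was higher for high regions. When the H4WT list was divided into 5 equal parts by fold, the lowest part of the cluster regions overlapped H4K91R at 26.3%, against 23.4% of the same part of the list. The next parts overlapped at 33.3% in the clusters, against 23.9% in the list, at 29.6%, against 31.6%, and at 66.7%, against 42.9%. In the highest part, with folds of at least 7.59, 51 of 60 cluster regions overlapped (85.0%, 73.4% to 92.9%), against 66.8% of the list. That part held 37.5% of the cluster regions. In the 3 lower parts the list value lay inside the interval of the clusters, and in the 2 higher parts below it. In the other direction the cluster shares were high in every part: divided in the same way, the H4K91R cluster regions overlapped H4WT at 86.7%, 81.0%, 85.0%, 100% and 100% from the lowest part to the highest. The same parts of the whole H4K91R list overlapped at 47.1%, 47.7%, 51.3%, 57.3% and 66.2%.

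**Figure D5:**
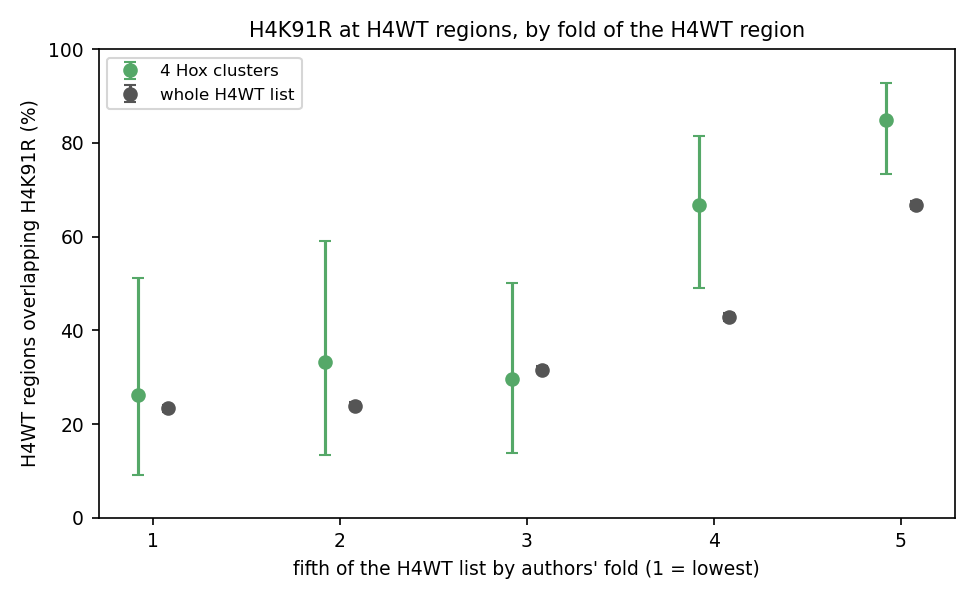
Percent of H4WT regions that overlap an H4K91R region (vertical axis) by equal part of the H4WT list in authors' fold, from the lowest (1) to the highest (5) (horizontal axis). Green points are regions in the 4 Hox clusters with exact 95% intervals, and grey points are all H4WT regions with intervals about as small as the point. The green points stand at 66.7% and 85.0% in the upper parts, above the grey points at 42.9% and 66.8%.

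The 29 non-coding genes that lie wholly within the clusters were marked by H4K91R at 15 and by H4WT at 24, with none marked by H4K91Q or EV. Of 28056 non-coding genes and pseudogenes in all, 11.7% were marked by H4K91R, 1.91% by H4K91Q, 17.2% by H4WT and 0.645% by EV. Hotair, a long non-coding RNA in HoxC, had a fold of 6.14 for H4K91R and 8.04 for H4WT. Haglr, beside Hoxd1, had 6.55 for H4K91R and 4.93 for H4WT, in regions it shares with Hoxd1. Hoxa11os, which runs antisense to Hoxa11, shared its regions too, with 7.54 for H4K91R and 13.4 for H4WT.

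Of the 6 microRNA genes of the clusters, H4K91R marked 2, Mir196b and Mir615, H4K91Q none, H4WT 3, the same pair and Mir10b, and EV none. Mature sequences are shown for the 5p arms of the miR-10 and miR-196 genes and the 3p arm of Mir615. The seed, bases 2 to 8, is in capitals and pairs with targets. The other arms carry other seeds and are left out, and the printed sequences fall into 3 groups by seed. All are from RefSeq, 5′ to 3′.
mmu-miR-196b-5p: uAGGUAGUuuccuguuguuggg
mmu-miR-196a-5p: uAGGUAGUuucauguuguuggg
mmu-miR-10a-5p: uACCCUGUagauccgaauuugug
mmu-miR-10b-5p: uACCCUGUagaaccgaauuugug
mmu-miR-615-3p: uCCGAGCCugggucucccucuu

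Genes with the same seed lie in different clusters and differed in their distance to the nearest region. Mir196b, in HoxA, lay 13 bp from an H4K91R region and under an H4WT region with a fold of 9.19. Mir196a-1 and Mir196a-2, which carry the same seed in HoxB and HoxC, lay 6201 bp and 2281 bp from H4K91R, and 1106 bp and 2143 bp from H4WT. Mir10a and Mir10b, which share the other repeated seed, were 1638 bp and 1217 bp from H4K91R, and 1615 bp and 540 bp from H4WT. Mir615, inside Hoxc5, lay 50 bp from H4K91R with a fold of 4.82 and under an H4WT region with a fold of 11.3.

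High occupancy of a developmental gene family was not limited to the clusters. A list of 109 homeobox genes outside them was picked by gene symbol and does not hold the whole family. H4K91R marked 92 of these (84.4%, 76.2% to 90.6%), H4K91Q 2, H4WT 100 (91.7%, 84.9% to 96.1%) and EV 2. Of 44 forkhead genes, another family of transcription factors, H4K91R marked 36 (81.8%, 67.3% to 91.8%), H4K91Q 1, H4WT 42 (95.5%, 84.5% to 99.4%) and EV none. The H4K91R intervals of both families hold the Hox share of 86.8%. The H4WT interval of the forkhead genes holds the Hox share of 97.4%, and that of the homeobox genes ends below it. The Hox interval for H4WT, 86.2% to 99.9%, holds the homeobox share of 91.7%, so these shares are not separated. H4K91R was found at 92 of the 100 H4WT-marked homeobox genes and at 36 of the 42 H4WT-marked forkhead genes, against 33 of 37 in the Hox list. The density of many regions over a whole cluster, described above, was not measured for these dispersed genes.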

How the data were processed

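HA ChIP-seq peak lists of 4 stem cell lines, 1 library per group, were analysed. Groups came from the sample titles. MACS2 called the peaks on mm10, per the submitters' processing notes, with each pulldown set against its own line's input, per the peak names in the deposited files. Aligner, MACS2 version and threshold are not stated in the labels.

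The score in the deposited lists was 10 times the −log10 q, rounded down, for 100% of peaks. Regions were ranked within a list by the authors' fold, a ratio to background. The deposited −log10 p values were left aside. Peaks were filtered (5 or more) and lists shortened by the −log10 q of the authors, whose lowest value was 1.58 for H4K91R, 1.40 for H4K91Q, 1.40 for H4WT and 1.77 for EV. Depth is unknown, and list length, on which all counts rest, can move with it.

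Tagged peaks overlapping an EV peak by 1 bp were left out. Gene ends came from the RefSeq table of GRCm38.p6. Strand came from the promoter table for 22 Hox genes and from their cluster for the rest. Python 3.11.15, scipy 1.17.1 and bedtools 2.31.1 were used. On simulated data, 100% of 200 planted gene-end regions were found over 21887 genes. Groups were not tested against each other, having 1 library each. Alternatives were a −log10 q filter, shortened lists, EV overlaps kept, and windows of 500 bp, 2 kb, the whole gene or the start. Others were covered bases, HoxB without Hoxb13, overlaps of 50%, and the H4WT list alone shortened to the length of the H4K91R list.

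The Hox genes, the other gene lists and the comparisons were chosen with earlier results of these data known. The text gives all 4 cluster totals, the highest gene of each cluster and list, the genes marked by 1 of H4K91R and H4WT, and the members with a percentile far apart in the lists, which were chosen after their values were seen. Counts over the cofactor list, and the value of 1 gene in it, are not reported here.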

Additional observations from a re-analysis of the deposited data

How the results depend on the processing

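No paired analysis was possible because there was 1 library per group. Of 62 alternative values, 46 stayed close to the value given above and 16 moved. A count or density was called close within a fixed ratio, and a share inside its interval. Some of the 46 could not move. Shortening to the length of the H4K91Q list leaves that list unchanged, and shortening H4WT alone leaves H4K91R and H4K91Q unchanged. For the 16 the cause was not tested, except that shortened and filtered lists hold fewer regions by construction.

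With lists of equal length H4K91R marked 20 Hox genes. H4K91Q marked 1 with windows of 2 kb and 1 with the whole gene and 1 kb as window, Hoxd10 in the first case and Hoxd11 in the second. H4K91R otherwise marked between 27 and 36 Hox genes and H4WT between 29 and 38, always above the share of all genes under the same setting.

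Regions per 10 kb in lists of equal length were 1.49 for H4K91R and 2.09 for H4WT in HoxA, 0.682 and 0.796 in HoxB, 0.595 and 1.53 in HoxC, and 1.62 and 1.11 in HoxD. Peaks with a −log10 q of at least 5 gave H4K91R 0.909 in HoxB and 1.10 in HoxC. HoxB without Hoxb13 had 2.53 for H4K91R. Over 34 such alternatives the clusters stayed between 8.81 and 42.1 times the genome average of the list under the same setting.

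The share of H4WT cluster regions with H4K91R was 45.7% at a −log10 q of 5 or more (29.6% of the list) and 43.8% when 50% of each region had to overlap (23.3% of the list).

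Peak lists without read numbers limit every absence: no region means no peak past the caller's threshold in 1 library, not that tagged H4 was missing. This bears most on H4K91Q, the shortest of the tagged lists.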

Other observations

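Next to the clusters, regions were unevenly placed. Within 100 kb of HoxA, H4K91R had 11 regions on the posterior side and none on the anterior side, H4K91Q 2 and none, and H4WT 9 and 3. Evx1, an even-skipped homeobox gene on the posterior side of HoxA, had 3 H4K91R regions at its ends with a highest fold of 6.78, and 3 H4WT regions with 11.0. Evx2, its counterpart beside Hoxd13, had 1 H4K91R region with a fold of 5.34 and 1 H4WT region with 4.58. Beside HoxD the posterior side held 4 H4K91R and 7 H4WT regions, and the anterior side none and 1. Beside HoxC the anterior side held more, with 5 H4K91R and 9 H4WT regions, against 1 and 2 on the posterior side. Beside HoxB the posterior side had 2 H4K91R and 9 H4WT regions, and the anterior side 1 and 3.

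Cofactor genes, whose products bind DNA together with Hox proteins, were looked at singly, and none named here had an H4K91Q or EV region at its ends. Meis2 had an H4K91R fold of 6.14 and an H4WT fold of 10.6. Pknox2 and Pbx4 had H4WT alone, with folds of 11.5 and 7.05. Meis3 had no region at its ends in any list. Pbx2, Pbx3, Meis1 and Pknox1 had H4K91R folds between 4.42 and 5.19 and H4WT folds between 6.09 and 7.89.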
